A study of Mus musculus with 15 samples.

Results

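The 9 genes described here are carbonic anhydrases, the zinc enzymes that turn carbon dioxide and water into bicarbonate and a proton, together with their non-enzymatic relatives. They are *Car2*, *Car4*, *Car7*, *Car8*, *Car10*, *Car11*, *Car12*, *Car13* and *Car14*, taken by symbol from a table of 24982 gene symbols measured in the ventral striatum. All 9 were found, and all 9 passed the minimum level for testing, along with 15252 other genes. The genes were selected by family and with the *Fmr1* KO against WT differences of these same mice already known, so those differences are given below as a description. Counts of members under a threshold in those comparisons stand beside the share of all genes under it and support nothing. The choice of genes did not use the comparisons of females with males, the levels per length, the spread between mice or the correlations within groups. The comparisons of females with males share their group means with that choice, so they are not independent of it.

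RNA was sequenced from 3 *Fmr1* KO males, 4 *Fmr1* KO females, 4 WT males and 4 WT females, all 2 to 3 months old, with the ventral striatum of both hemispheres combined in each mouse after behavioral testing. The KO mice carry a constitutive loss of *Fmr1*, in every cell and from conception, on the C57BL/6J strain. They came from hemizygous fathers and homozygous mothers, and the WT controls were C57BL/6J mice that were not their littermates, so genotype cannot be told apart from breeding or rearing differences between the lines. A further KO male that the authors set aside was not analysed here.

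The authors deposited regularized log (rlog) values, which are on a log2 scale, corrected for library size and drawn toward the mean of the gene where counts are low. A difference of 1 is a doubling where counts are high, and less than the true change for a weakly expressed gene such as *Car13*. The depth of each library is unknown from these values, so the spread between mice is the only error given. *Fmr1* itself was at 9.87, 9.95 and 9.96 in KO males and 9.82, 10.004, 9.87 and 10.08 in KO females, against 10.66, 10.88, 10.79 and 10.87 in WT males and 10.62, 10.74, 10.83 and 10.81 in WT females. Every KO mouse lay below every WT mouse, matching the labels. The transcript remained measurable in KO mice, with a KO minus WT difference of -0.87 in males and -0.81 in females. By qPCR the paper found *Fmr1* mRNA at very low levels in the striatum of KO mice, and its western blot detected no FMRP there. The drop in rlog was smaller than that qPCR result, and why was not tested.

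In the brain, carbonic anhydrases set how fast bicarbonate and protons come into balance inside cells and in the narrow space around them. Because GABA-A receptors let bicarbonate pass as well as chloride, the enzymes inside neurons bear on GABAergic signaling, and those on cell surfaces buffer the pH changes that follow synaptic activity. *Car2*, *Car7* and *Car13* encode cytosolic enzymes, *Car4* an enzyme tethered to the outer membrane by a lipid anchor, and *Car12* and *Car14* membrane-spanning enzymes with the active site outside the cell. *Car8*, *Car10* and *Car11* encode carbonic anhydrase-related proteins, which keep the fold of the enzymes and have lost the activity.

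The zinc ion of an active enzyme is held by histidines, and the codons for them separate the enzymes from the related proteins in the reference sequence. The stretch that holds the first pair is shown for all 9 genes because it carries that difference. Each line is 27 coding bases of the GENCODE transcript on GRCm38, read 5′ to 3′ on the strand of the gene, and the capitals mark the codons aligned to the histidine codons 94 and 96 of *Car2*, counted from 1 at the start codon.
Car2: atccagtttCACtttCACtggggctca
Car7: aagcagctcCACttcCACtggggcaag
Car13: cggcagttcCATttgCACtgggggtca
Car4: gtacagttgCACctgCACtggtcaaat
Car12: gagcagctgCACttgCACtgggggaac
Car14: gcccagctcCACctgCACtggggtcag
Car8: tatgaagttAGAtttCACtggggaaga
Car10: gaagaaatcCGGctaCACtttgggagt
Car11: agtgaactgCGCctgCTAtttggagct

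The third histidine codon, 119 in *Car2*, lies further along and its surroundings are shown for *Car2* and for the pair of genes that differ from it there, again with the aligned codon in capitals.
Car2: gctgcagagcttCACttggttcactgg
Car10: tccggggaggtaCAActcatccactat
Car11: tccgctgaggtgCAGctaatccacttc

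In *Car2*, *Car4*, *Car7*, *Car12*, *Car13* and *Car14* all 3 codons encode histidine (CAC or CAT). With positions in *Car2* codon numbers, *Car8* had the change H94R, *Car10* had H94R and H119Q, and *Car11* had H94R, H96L and H119Q. Over the aligned codons, the encoded residues were identical at 56.9% between *Car2* and *Car13*, 55.9% between *Car10* and *Car11*, 42.7% between *Car12* and *Car14*, and 23.7% between *Car4* and *Car10*, the least alike pair of the 9. No reads of these mice were used for the sequences.

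The cytosolic genes *Car2* and *Car13* are near neighbors on chromosome 3, at chr3:14886273-14900770 and chr3:14641727-14663002, both on the plus strand, and *Car14* is on the minus strand of the same chromosome at chr3:95897768-95904691. Their first windows above are in exon 3 at chr3:14895060-14895086 for *Car2*, exon 3 at chr3:14650697-14650723 for *Car13* and exon 4 at chr3:95900300-95900326 for *Car14*. *Car4* (chr11:84957786-84966044) and *Car10* (chr11:93098028-93601749) are on the plus strand of chromosome 11, with windows in exon 4 at chr11:84964158-84964184 and chr11:93490597-93490623. *Car7* is on the plus strand at chr8:104534689-104550343 with its window in exon 3 at chr8:104547725-104547751. *Car8* is on the minus strand at chr4:8143362-8239041 with its window in exon 3 at chr4:8221604-8221630. *Car11* is on the plus strand at chr7:45699843-45704682 with its window in exon 4 at chr7:45702539-45702565. *Car12* is on the plus strand at chr9:66713686-66766845 with its window in exon 4 at chr9:66747638-66747664. The windows around the third codon cross the boundary to the next exon, at chr3:14895132-14895140 and chr3:14895535-14895552 for *Car2*, chr11:93490669-93490677 and chr11:93578666-93578683 for *Car10*, and chr7:45702611-45702619 and chr7:45702833-45702850 for *Car11*. The 3′ end of *Car14* overlaps the opposite-strand gene *Aph1a* by 521 bases. The libraries kept strand, but whether the counting used it is not given in the sources used here, so reads there may belong to either gene.

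Per length, *Car2* and *Car11* were the most abundant of the 9 transcripts and *Car13* the least. On the scale of rlog minus the log2 of the longest annotated mRNA in kb, averaged over all 15 mice, the level was 11.2 for *Car2* and 11.2 for *Car11*, with *Car2* above *Car11* in 7 of 15 mice, so their order was not fixed. *Car4* at 8.45, *Car12* at 8.36 and *Car10* at 8.27 formed the next step. *Car4* was above *Car12* in 8 of 15 mice, and *Car12* above *Car10* in 7 of 15, so these genes did not separate either. *Car14* followed at 7.75, *Car7* at 6.82, *Car8* at 6.31 and *Car13* at 3.59, each above the next in all 15 mice, and *Car10* was above *Car14* in 14 of 15. With the coding length in place of the mRNA length, *Car2*, at 12.4, stood further above *Car11*, at 11.9. On that scale *Car12* and *Car10* moved above *Car4*, and *Car8* moved above *Car7*.

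**Figure D1:**
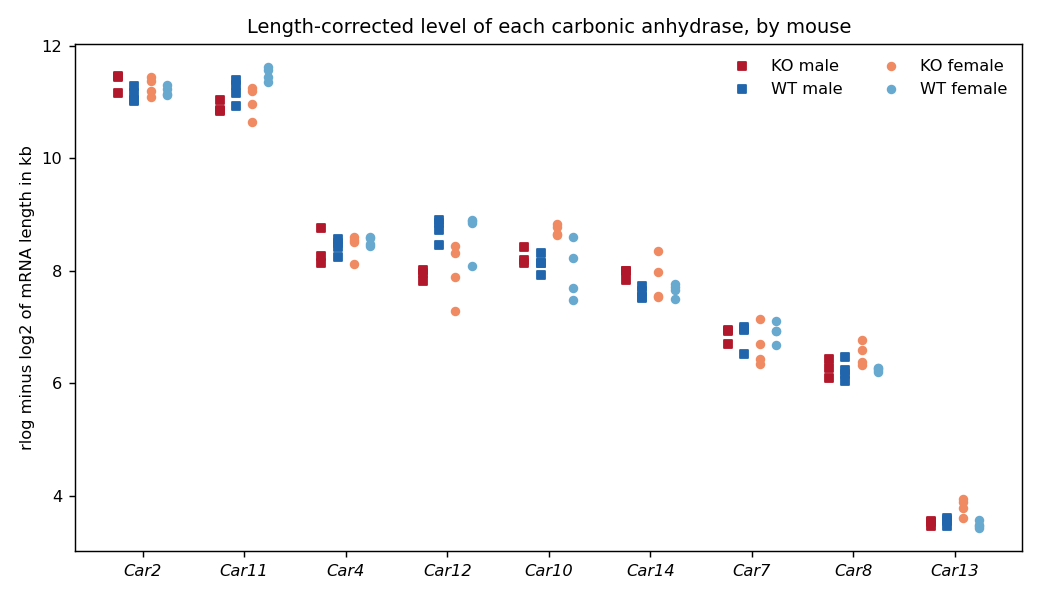
Length-corrected level of each gene (y axis, rlog minus log2 of the longest mRNA length in kb) for every mouse, with genes ordered by their mean. *Car2* and *Car11*, at 11.2 each, overlap at the top, and *Car13*, at 3.59, lies below every other gene in all mice.

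The genes also differed in how much mice of 1 group varied. The pooled within-group SD of *Car12* was 0.36, at the 98.2 percentile of the 15261 genes tested, and that of *Car10* was 0.29, at the 96.3 percentile. *Car7*, at 0.25, and *Car14*, at 0.22, were at the 94.1 and 91.9 percentiles. *Car4*, *Car11*, *Car8* and *Car2* were at the 88.9, 88.5, 81.9 and 73.3 percentiles. *Car13*, at 0.093, lay close to the median of all genes, 0.095. Because rlog draws low counts toward the mean of the gene, the spread of *Car13* may be held down beside that of stronger genes.

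Over both sexes, *Car12* and *Car11* were lower in *Fmr1* KO mice and *Car10*, *Car14*, *Car8*, *Car13* and *Car2* were on the higher side, with *Car7* and *Car4* slightly on the lower side. The 95% intervals of *Car8*, *Car7* and *Car4* included 0. The KO minus WT difference was -0.75 (standard error 0.16) for *Car12* and -0.39 (0.09) for *Car11*. It was 0.45 (0.15) for *Car10*, 0.26 (0.10) for *Car14*, 0.16 (0.08) for *Car8*, 0.16 (0.06) for *Car13* and 0.14 (0.07) for *Car2*, and -0.14 (0.12) for *Car7* and -0.06 (0.09) for *Car4* (limma, 7 KO and 8 WT mice, sex as a term). In no member did the 7 KO mice lie wholly below or wholly above the 8 WT mice, a separation seen in 0.21% of all genes tested in the lower and 0.157% in the higher direction.

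**Figure D2:**
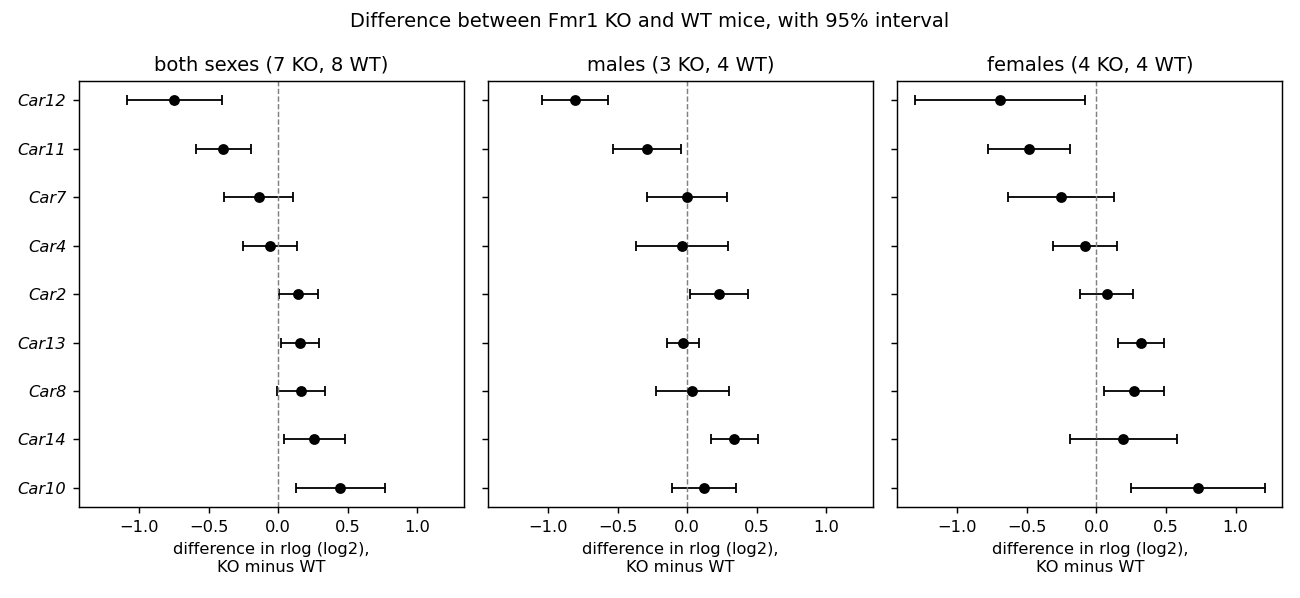
KO minus WT difference in rlog (x axis, log2) of each gene with its 95% interval from limma, over both sexes, in males and in females. *Car12*, at -0.75, and *Car11*, at -0.39, lie left of 0 in all 3 panels, and *Car10* lies at 0.12 in males and 0.73 in females.

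In the fit over both sexes, 2 of the 9 members, *Car11* and *Car12*, had an adjusted p under 0.05, as had 1.28% of the 15261 genes, 0.793% lower and 0.491% higher. Without adjustment, 6 of 9 members and 23.4% of all genes had a p under 0.05. Because the members were chosen knowing this contrast, these counts are no test of them, and nothing is read from the shares. They also depended on single mice. Leaving out any of WT male 1, 2 or 4, WT female 2, 3 or 4, KO male 1, 3 or 4 or KO female 1 or 3 left 0 of 9 members called, which makes 11 of the 15 fits without 1 mouse. Without WT male 3, KO female 2 or KO female 4 the count stayed at 2, and without WT female 1 it was 3, with *Car10* added. Over those 15 fits the number of genes called among all tested ranged between 5 and 1444, so the count of members moved with the whole table. The differences themselves kept their sign in all 15, between -0.85 and -0.63 for *Car12* and between -0.44 and -0.32 for *Car11*.

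*Car12* encodes a membrane enzyme that works on the outer face of the cell. Its rlog values were 9.71, 9.90 and 9.85 in KO males, against 10.61, 10.79, 10.35 and 10.74 in WT males. The male groups did not overlap. The difference of their mean rlog values corresponded to a KO to WT ratio of 0.572 on the linear scale. In KO females *Car12* was at 9.78, 10.21, 9.18 and 10.33, against 9.97, 10.77, 10.80 and 10.74 in WT females. Here 2 of the 4 KO females lay below every WT female, and the others lay above WT female 1, which stood apart from the other WT females.

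*Car11*, the related protein without any of the zinc histidines, was the most abundant of the non-enzymatic members. It was at 11.49, 11.52 and 11.69 in KO males, against 12.05, 11.82, 11.59 and 11.97 in WT males, so KO male 4 lay above WT male 3 and the groups overlapped. In females the values were 11.63, 11.92, 11.30 and 11.86 in KO mice, against 12.01, 12.28, 12.11 and 12.23 in WT mice. All 4 KO females were below all 4 WT females. The difference of the mean rlog values corresponded to a KO to WT ratio of 0.716 on the linear scale.

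Markers of striatal projection neurons moved with these genes. All 20 markers of that list, among them *Drd1*, *Drd2*, *Adora2a* and *Ppp1r1b*, were on the lower side in KO mice over both sexes, with a median difference of -0.48 beside 0.002 over all genes tested, and 1 of the 20 passed the adjusted threshold. No marker of the list was at 0. The summed score, the mean deviation of the markers in log2, ranged from -0.39 to 0.12 in KO males and -0.85 to -0.04 in KO females, against -0.03 to 0.36 in WT males and -0.27 to 0.41 in WT females. With this score in the model the difference over both sexes was -0.24 for *Car12* and -0.12 for *Car11*, beside -0.75 and -0.39 without it. That fit called 0 of 9 members and 1 of all 15261 genes, beside 196 of all genes without the score. The marker lists were written with earlier results of these data known. The paper had already reported *Drd1*, *Ppp1r1b* and *Adcy5*, all in this list, as lower in these KO mice. Nothing is therefore read from the count of markers or from the fit with their score. Markers of neighboring regions, such as *Tcf7l2* and *Zic1*, were on the higher side for 11 of 13 tested, with scores of -0.03 to 0.66 in KO males and -0.33 to 0.75 in KO females, against -0.38 to 0.11 in WT males and -0.33 to 0.16 in WT females. In pieces of tissue, fewer cells of a type and less RNA per cell cannot be told apart, and whether the dissection differed between the groups was not tested.

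**Figure D3:**
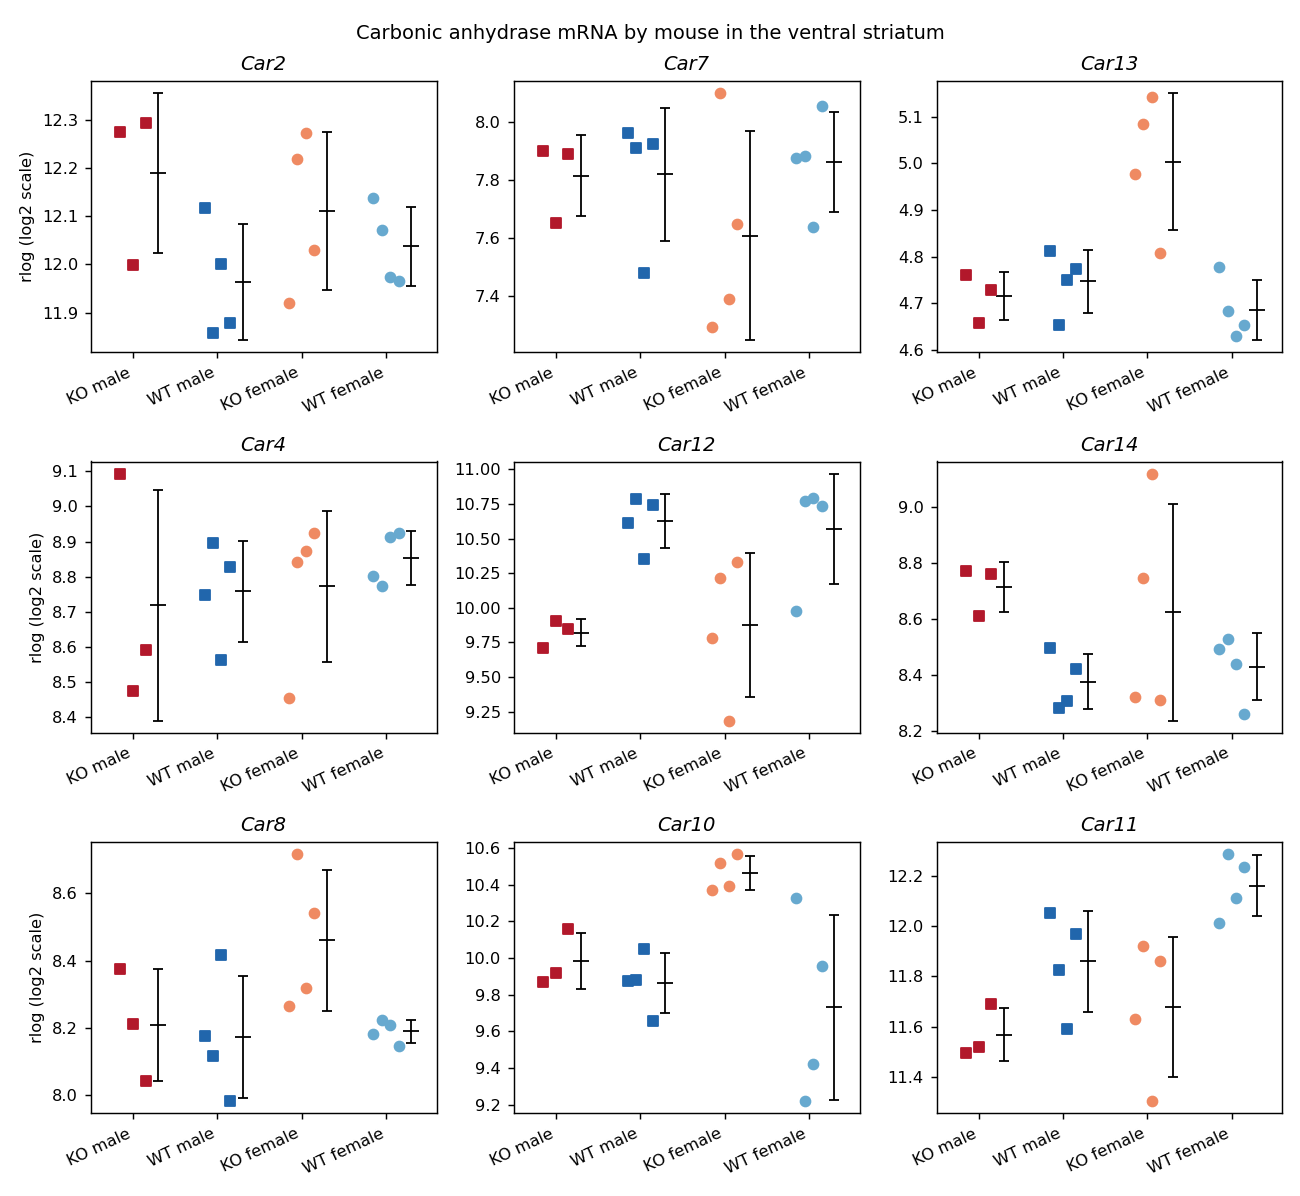
rlog value (y axis, log2 scale, a separate range for each gene) of the 9 carbonic anhydrases in every mouse (points), with the mean and SD of each group beside them. *Car12* separates KO from WT males, with KO males between 9.71 and 9.90, *Car11* separates KO from WT females, and *Car8*, *Car10* and *Car13* are higher in all 4 KO females than in any WT female.

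*Car10* encodes a secreted relative that binds neurexins, the presynaptic adhesion proteins. In KO males it was at 9.87, 9.92 and 10.16, against 9.87, 9.88, 10.05 and 9.66 in WT males, within overlapping ranges. In KO females it was at 10.37, 10.52, 10.39 and 10.56, against 10.33, 9.22, 9.43 and 9.96 in WT females, so every KO female was above every WT female. The nearest pair of mice were KO female 1 at 10.37 and WT female 1 at 10.33, and the SD was 0.09 in KO females and 0.50 in WT females. *Nrxn2* and *Nrxn3* differed between KO and WT mice by 0.11 and -0.03 over both sexes, and neither passed the threshold.

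*Car8* encodes the relative that binds the inositol trisphosphate receptor and lowers its affinity for its ligand. Its values were 8.38, 8.21 and 8.04 in KO males, against 8.17, 8.12, 8.42 and 7.98 in WT males. In females they were 8.26, 8.72, 8.32 and 8.54 in KO mice, against 8.18, 8.22, 8.21 and 8.15 in WT mice, without overlap. *Itpr1*, the gene of that receptor, differed by -0.53 (standard error 0.15, limma adjusted p = 0.0723) over both sexes and did not pass.

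*Car13*, a cytosolic enzyme and the weakest member here, showed the same order in females. Its rlog was 4.76, 4.66 and 4.73 in KO males, against 4.81, 4.65, 4.75 and 4.77 in WT males, and 4.98, 5.08, 5.14 and 4.81 in KO females, against 4.78, 4.68, 4.63 and 4.65 in WT females. All 4 KO females were above all WT females, with KO female 4 next to WT female 1.

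*Car14*, the second membrane-spanning enzyme, separated the males instead. It was at 8.77, 8.61 and 8.76 in KO males, against 8.50, 8.28, 8.31 and 8.42 in WT males. In females it was at 8.32, 8.74, 9.12 and 8.31 in KO mice, against 8.49, 8.53, 8.44 and 8.26 in WT mice, so 2 KO females were above every WT female and the other KO females were within the WT range.

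*Car2*, the abundant cytosolic enzyme that in the brain is best known from oligodendrocytes and choroid plexus, was at 12.28, 12.00 and 12.29 in KO males, against 12.12, 11.86, 12.00 and 11.88 in WT males. In females it was at 11.92, 12.22, 12.27 and 12.03 in KO mice, against 12.14, 12.07, 11.97 and 11.97 in WT mice. KO and WT overlapped in both sexes.

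Oligodendrocyte markers (14 tested, such as *Mbp* and *Mog*, none at 0) and choroid plexus markers (11 tested, such as *Ttr* and *Folr1*, none at 0) did not pass the adjusted threshold in any KO and WT comparison. In males 12 of the 14 and 10 of the 11 were on the higher side, with medians of 0.17 and 0.34 beside 0.0002 over all genes, and in females 8 of the 14 and 6 of the 11, with medians of 0.02 and 0.003. The oligodendrocyte score ranged from -0.07 to 0.22 in KO males and -0.28 to 0.34 in KO females, against -0.16 to 0.05 in WT males and -0.22 to 0.10 in WT females. The choroid plexus score was 0.33 to 0.41 in KO males, against -0.30 to 0.000309 in WT males, without overlap, and -0.36 to 0.21 in KO females, against -0.28 to 0.11 in WT females. With the oligodendrocyte score as a covariate, the difference in males was 0.20 for *Car14* and 0.02 for *Car2*, beside 0.34 and 0.23 without it. With the choroid plexus score as a covariate the difference in males was 0.23 for *Car14* and 0.003 for *Car2*. Because that score did not overlap between KO and WT males, the fit could hardly tell it apart from genotype. Nothing is read from these values. With group means removed, the correlation with the choroid plexus score was 0.15 for *Car14* and -0.05 for *Car2*.

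*Car7*, the cytosolic enzyme known from neurons, was at 7.90, 7.65 and 7.89 in KO males, against 7.96, 7.91, 7.48 and 7.92 in WT males. It was at 7.29, 8.10, 7.39 and 7.65 in KO females, against 7.88, 7.88, 7.64 and 8.06 in WT females. The ranges overlapped, and KO female 2 was the highest of all 15 mice and KO female 1 the lowest. *Car4*, which in brain is known from the capillary surface, spanned 8.47 to 9.09 in KO males and 8.46 to 8.92 in KO females, against 8.56 to 8.90 in WT males and 8.77 to 8.92 in WT females, and overlapped in both sexes.

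Within the sexes, 0 of 9 members passed an adjusted p under 0.05 in limma, in males (0.00655% of all genes) and in females (0.0131%). At an unadjusted p under 0.05 there were 4 members in males, *Car2*, *Car11*, *Car12* and *Car14*, beside 17.2% of all genes, and 5 in females, *Car8*, *Car10*, *Car11*, *Car12* and *Car13*, beside 14.5%. Without WT male 3, *Car12* alone was called in males, as 1 of 322 genes. The groups did not overlap for 1 member lower (*Car12*) and 1 higher (*Car14*) in males, a separation found in 8.58% and 6.59% of all genes. In females they did not overlap for 1 member lower (*Car11*) and 3 higher (*Car8*, *Car10* and *Car13*), beside 3.89% and 3.59% of all genes.

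The choice of members used both single-sex comparisons, so the difference between them, the KO minus WT difference in females minus that in males, is also given as a description. It was 0.61 for *Car10* (95% interval 0.04 to 1.18), 0.35 for *Car13* (0.15 to 0.55), 0.24 for *Car8* (-0.10 to 0.57) and 0.11 for *Car12* (-0.60 to 0.82), and between -0.25 and -0.04 for the other 5 members. In limma, 0 of 9 members and 0 of 15261 genes (0%) were under the adjusted threshold for this interaction, and without adjustment 2 members, *Car10* and *Car13*, and 5.98% of all genes had a p under 0.05. No member is therefore shown to differ between KO and WT mice by another amount in females than in males.

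The choice of members used the WT values, though not the difference between WT females and WT males, which is therefore a description too. *Car11* was the member with the largest difference between the sexes of WT mice, 0.30 higher in females (95% interval 0.03 to 0.57, limma adjusted p = 0.264). It did not pass the threshold. Over both genotypes *Car11* was 0.21 higher in females (0.02 to 0.41, adjusted p = 0.192). In limma, 0 of 9 members passed in WT mice, where 2.82% of all genes did, and 0 of 9 over both genotypes, where 7.29% did. At an unadjusted p under 0.05 *Car11* was the only member in each, beside 15% and 21.3% of all genes. The other 8 members differed between WT females and WT males by -0.13 to 0.09. With the projection neuron score in the model, *Car11* passed in both comparisons. It was at 0.30 (limma adjusted p = 0.0223) in WT mice, among 673 of 15261 genes called. Over both genotypes it was at 0.26 (adjusted p = 0.00478), among 1600 called. Sample quality weights also brought *Car11* past the threshold, among 1436 genes called in WT mice and 2314 over both genotypes. It passed in WT mice with the score of neighboring regions in the model (0.29, adjusted p = 0.0446), among 745 genes called. That score was added after the data were seen. Without KO female 3 *Car11* passed over both genotypes (0.27, adjusted p = 0.0355), among 1045 of 15260 genes called. In WT mice it did not pass in 8 of the 11 alternative settings or in any of the 15 fits without 1 mouse. Over both genotypes it did not pass in 9 of 11 settings and 14 of 15 such fits.

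With the mean of each group removed, so that neither genotype nor sex enters, some members formed sets that varied together across the 15 mice. These correlations are descriptions over mice that share dissection and library preparation. *Car14*, *Car13* and *Car2* formed the first set, with Pearson correlations of 0.81 for *Car13* with *Car14*, 0.76 for *Car2* with *Car14* and 0.73 for *Car2* with *Car13*. Their correlation with the oligodendrocyte score was 0.93, 0.79 and 0.77 in the order *Car14*, *Car13* and *Car2*, at or above the 98.4 percentile of all tested genes. *Car12* and *Car11* formed the second set, with a correlation of 0.81 between them. Theirs with the projection neuron score were 0.93 and 0.87, at the 99.3 and 97.5 percentiles. With the score of neighboring regions they were -0.89 and -0.80, at the 2.2 and 5.5 percentiles. *Car12* and *Car13* ran in opposite directions, at -0.68.

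*Car7* correlated with *Car11* at 0.72, with the score of cortical neuron markers at 0.76 and with the choroid plexus score at -0.84, at the 0.4 percentile of all genes. *Car4* had its highest correlation with the endothelial score, 0.72. *Car10* had its highest with the cortical score, at 0.54, and *Car8* its strongest with the interneuron score, at -0.54. The membrane-spanning enzymes were divided, with *Car14* in the first set and *Car12* in the second. The cytosolic *Car2* and *Car13* were together in the first set, and *Car11* was the only related protein in either. *Car4*, *Car7*, *Car8* and *Car10* were placed in neither set.

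**Figure D4:**
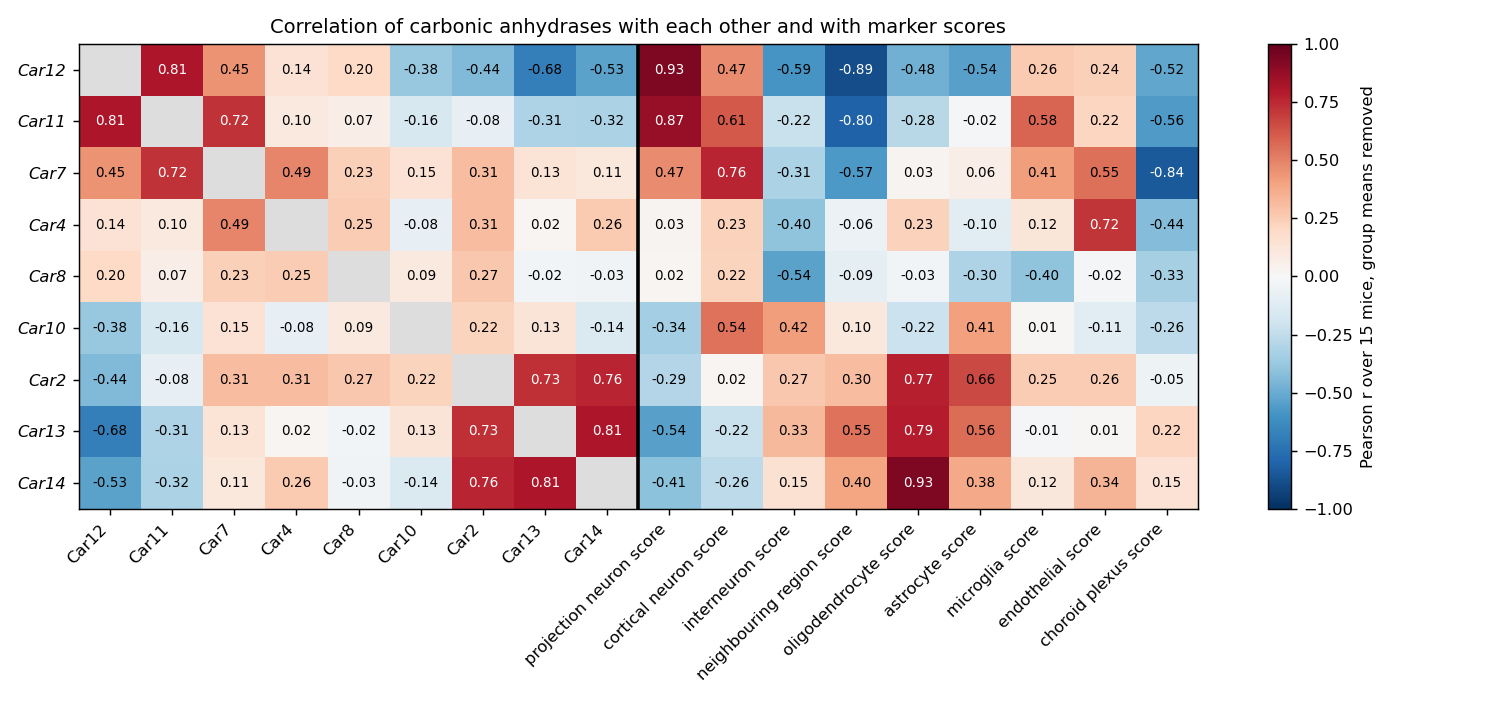
Pearson correlation over 15 mice, with group means removed, of each gene (rows) with the other 8 (left columns) and with 9 marker scores (right columns), printed in each cell. *Car2*, *Car13* and *Car14* form a block with the oligodendrocyte score, at 0.77 to 0.93, and *Car12* and *Car11* stand with the projection neuron score, at 0.93 and 0.87.

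Among 15252 other genes, those whose group-centered values were most like those of *Car12* were *Syt6* (0.98), *Synpr* (0.98) and *Arpp21* (0.97), the last of which is also in the projection neuron list. For *Car11* they were *Prkcz* (0.98), *Cx3cl1* (0.97) and *Itpka* (0.97). For *Car14* they were *Tmem63a* (0.97), *Cntn2* (0.96) and *Fa2h* (0.96), and for *Car13* they were *Acy3* (0.94), *Med29* (0.93) and *Plxnb3* (0.93). *Car2* was most like *Bnip3l* (0.93), *Ube2d1* (0.92) and *Trp53bp2* (0.91), and *Car7* most like *R3hdm2* (0.95), *Parp1* (0.93) and *Poc1a* (0.93). *Car4* was most like *Btn2a2* (0.94), *Extl3* (0.91) and *Fzd6* (0.88), *Car10* most like *Basp1* (0.92), *Epha3* (0.92) and *Miat* (0.91), and *Car8* most like *Pgam5* (0.89), *D030056L22Rik* (0.85) and *Mrpl48* (0.84).

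**Figure D5:**
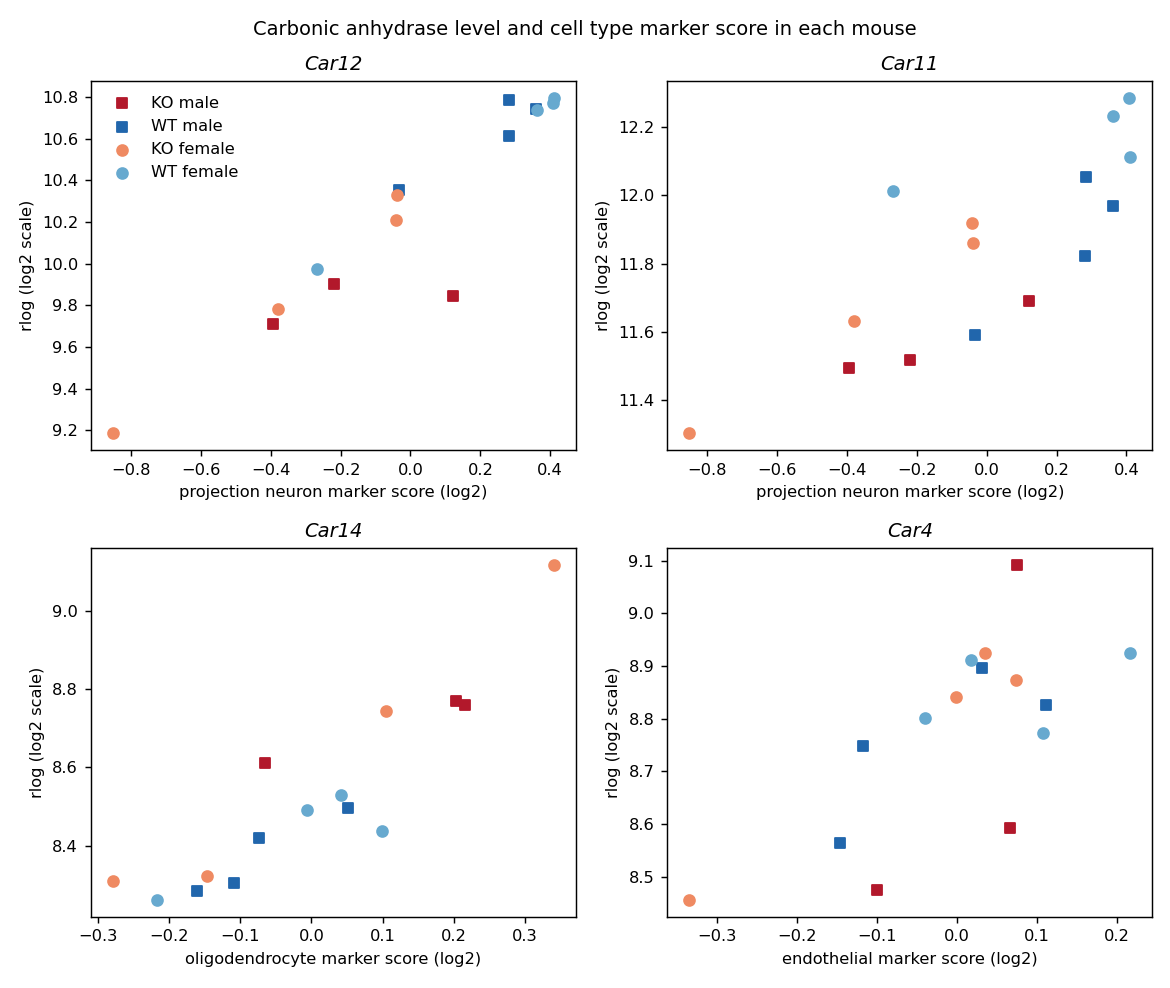
rlog value (y axes, log2 scale) of *Car12*, *Car11*, *Car14* and *Car4* against the summed marker score named on each x axis (log2), with 1 point per mouse and color and shape by group. Within each group mice with a higher projection neuron score tended to have more *Car12* and *Car11*, and KO female 3, with a score of -0.85, has the lowest value of both.

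Among the other carbonic anhydrase genes, *Car1*, *Car5a* and *Car6* averaged 0.06, 1.85 and -0.26 in rlog and were below the minimum of 3 for testing. *Car5b* and *Car5a* encode the mitochondrial enzymes. *Car5b* was 0.16 lower in KO mice over both sexes, at -0.16 (standard error 0.06, limma adjusted p = 0.130), and *Car15*, a membrane-anchored enzyme, was at -0.10 (0.04, adjusted p = 0.151). *Car3*, a cytosolic enzyme, and *Car9*, a hypoxia-induced membrane enzyme, were at 0.06 and 0.04. None of these 4 passed. The receptor phosphatases *Ptprg* and *Ptprz1*, whose outer part is a carbonic anhydrase-like domain, were at 0.07 and 0.04 and did not pass.

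Of 59 listed genes that handle acid, bicarbonate or chloride or that bind the related proteins, the other carbonic anhydrases included, 47 were tested. Over both sexes 1 of the 47 passed, beside 1.28% of the 15261 genes, and nothing is read from that count. The gene that passed was *Hvcn1*, the voltage-gated proton channel that in brain is known from microglia, at -0.28 (standard error 0.06, limma adjusted p = 0.0424). All 12 microglia markers tested were on the lower side, and 0 of them passed. Their score was -0.16 to 0.07 in KO males and -0.14 to -0.02 in KO females. In WT mice it was -0.14 to 0.30 in males and 0.03 to 0.14 in females. The call of *Hvcn1* was lost without any of the same 11 mice whose absence ended the calls of *Car11* and *Car12*. The 47 genes had a median difference of 0.04, with 27 on the higher and 20 on the lower side.

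The next list genes by p-value did not pass. *Slc4a8*, a sodium-driven chloride and bicarbonate exchanger of neurons, was at 0.24 (adjusted p = 0.0526) and *Asic4*, of the acid-sensing ion channel family, at -0.53 (adjusted p = 0.0526), both from limma. Of the 15 genes tested from the *Slc4* and *Slc26* families, which include the bicarbonate transporters listed, 0 passed. After *Slc4a8* the smallest p-values there were those of *Slc26a11* at 0.27, *Slc4a11* at -0.25 and *Slc26a7* at 0.09. Of the 8 sodium-proton exchangers and proton channels *Hvcn1* alone passed, and *Slc9a5* was at -0.27, *Slc9a8* at 0.13 and *Slc9a2* at -0.28. Of the 5 lactate and proton cotransporters and their partners 0 passed, with *Emb* at 0.25, *Slc16a7* at -0.27, *Slc16a1* at 0.07 and *Slc16a3* at -0.04. Of the 5 genes tested from the families of acid-sensing channels and proton-sensing receptors 0 passed, with *Asic2* at 0.21 and *Gpr4* at 0.07 after *Asic4*. Of the 4 chloride cotransporters 0 passed, with *Slc12a2*, which brings chloride into cells, at 0.15, *Slc12a5*, which takes it out of neurons, at -0.09, and *Slc12a7* at 0.09.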

How the data were processed

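The authors sequenced a stranded TruSeq mRNA library of each mouse from both ends of the fragment and obtained counts per gene after STAR alignment to UCSC mm10. The deposited values are log2-scale rlog values that the authors computed with DESeq2 over all samples together. Versions of STAR and DESeq2 are not given in the sources used here. Of 24982 symbols 20223 vary, and the 15261 with a mean rlog of at least 3 entered limma 3.58.1 under R 4.3.3 (empirical Bayes with a variance trend, 2-sided, Benjamini-Hochberg over all genes tested, threshold 0.05). Read counts were not used here, and depth is unknown.

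The comparison over both sexes had sex as a term, and males and females were fitted alone. A model with a mean for each of the 4 groups gave the interaction and the WT sex difference, and the sex difference over both genotypes had genotype as a term. Each fit was tested on simulated data. A marker score is the mean over a list of the rlog minus the mean of the gene over all mice. Correlations used values with group means removed. Gene positions, mRNA and coding lengths and coding sequences are from GENCODE vM21 (GRCm38, the same assembly as mm10), and encoded residues were aligned with MAFFT 7.526. Plots were drawn with matplotlib.

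The members, gene lists and tests were chosen with earlier results of these data known. Named are all members, the other carbonic anhydrases in the table, each acid-base list gene that passed and up to 4 per list by p-value, the 3 genes most like each member, and *Fmr1*. A few list genes that this rule would name are not reported here. Nothing says which mice were littermates, so p-values measure the spread between these mice. The alternatives were another or no minimum, no variance trend, quantile normalization, centring on sample medians, sample quality weights, a replicate block, marker scores as covariates, 1 estimate of spread over the 15 mice for the single-sex comparisons, coding length for levels, and leaving out each mouse. Added after the data were seen were the neighboring region score as a covariate and dropping WT male 3 together with WT female 1.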

Additional observations from a re-analysis of the deposited data

Results flagged for a closer look

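In 27 groups of 4 mice, 1 for each member and group of that size, 2 mice stood apart from the rest of their group, where chance gives about 1 in 20 groups. *Car7* was at 7.48 in WT male 3, with the other WT males between 7.91 and 7.96. *Car12* was at 9.97 in WT female 1, with the other WT females between 10.74 and 10.80. WT female 1 had a projection neuron score of -0.27, the lowest of the 8 WT mice, and the part of that in its *Car12* value was not tested.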

How the results depend on the processing

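The fit over both sexes, with 2 members and 1 acid-base list gene called, was the most sensitive. Members called were 0 with no minimum on the mean rlog, 1 with no variance trend, 1 with centring on sample medians, 5 with sample quality weights, 0 with the projection neuron, choroid plexus, oligodendrocyte or neighboring region score as a covariate, and 0 to 3 when 1 mouse was left out. They stayed at 2 with a minimum of 5 and with quantile normalization. Acid-base list genes called were 0 with no minimum, 3 with a minimum of 5, 19 with quality weights, 0 with each of the 4 scores, 0 to 7 without 1 mouse and 9 without WT male 3 and WT female 1. Quality weights called 4767 of all genes, beside 196 without them and 51 of 20223 with no minimum. The fits with the projection neuron, choroid plexus, oligodendrocyte and neighboring region scores called 1, 50, 19 and 18 of all genes. In males, members called were 3 with quality weights (1865 of all genes), 0 to 1 without 1 mouse and 1 without WT male 3 and WT female 1 (322 of all genes). In the sex comparisons, 1 member was called with quality weights and with the projection neuron score, 1 in WT mice with the neighboring region score, and 0 to 1 over both genotypes without 1 mouse, the 1 being without KO female 3. For the fits that called 1 member, the numbers of all genes called are given with the sex comparisons above. The interaction had 0 members called in every fit run. Why these counts moved was not tested.

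The correlation of deviations between KO and WT mice of 1 sex and number was 0.13 to 0.37 for the 3 male numbers and -0.19 to 0.44 for the 4 female numbers, and 4 of the 7 mice correlated best with their own number. The labels name nothing that a number marks, and 2 of the 4 female numbers were under 0.1, so the numbers were not taken as pairs over both sexes. With a replicate block, 0 members and 0 acid-base list genes were called over both sexes, and 3 of all genes, and 0 members were called in males or in females, as without it. With the projection neuron score in the model *Car12* was at -0.60 in males and 0.02 in females. Beyond these settings, depth and counting error could not be assessed from rlog values.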
